A study of Homo sapiens with 18 samples.

Results

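Prostaglandin production and response were followed here through the chromatin of 8 genes: PLA2G4A, PTGS1, PTGS2, PTGES, PTGIS, HPGD, PTGER2 and PTGER4. The members were the peaks of open chromatin that overlapped the gene body or the 10 kb upstream of it, 71 of the 334857 peaks in the table. PTGIS held 22 of these, PLA2G4A 18, PTGS1 9, HPGD 6, PTGES, PTGER2 and PTGER4 5 each, and PTGS2 a single peak.

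The data were bulk ATAC-seq, in which a transposase cuts accessible DNA, of Ccd18-Co, an established fibroblast line from human colon, in 18 libraries and 3 groups of 6. The unstimulated group received no cytokines, and the labels do not say whether it received vehicle. The stimulated_DMSO group received 3 pulses of TNF, OSM and IL-17A at 10 ng/ml each with IL-1β at 0.1 ng/ml, each pulse being 72 h of cytokines in serum-free medium and 96 h of recovery. After 1 week of rest it received the vehicle DMSO, diluted 1:5000, for 5 days, and cells were collected 2 weeks later. The stimulated_Belinostat group had the same pulses and schedule, with 250 nM belinostat, a histone deacetylase inhibitor, in place of vehicle alone. By this schedule cytokines and drug had been withdrawn before collection. All groups came from 1 cell line, so the 6 libraries of a group carry no variation between donors. Nothing in the labels says that the 6 libraries came from separate experiments, and the p-values measure only the spread between them.

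Prostaglandins are made from arachidonic acid, which cytosolic phospholipase A2 (PLA2G4A) releases from membranes. The cyclooxygenases, constitutive PTGS1 and inducible PTGS2, convert it to prostaglandin H2, from which PTGES makes prostaglandin E2 and PTGIS makes prostacyclin. HPGD inactivates prostaglandins, and the receptors PTGER2 and PTGER4 pass the prostaglandin E2 signal on through cyclic AMP. In the gut, stromal cells are a known source of prostaglandin E2, and PTGS2 is the step of the pathway best known for induction by inflammatory cytokines.

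Total counts ran from 7077321 to 11352032 in unstimulated, from 6488975 to 8066642 in stimulated_DMSO and from 4661678 to 6370845 in stimulated_Belinostat libraries. A peak over the start was found for 10 of 10 fibroblast markers and all 3 muscle markers, so this count does not tell fibroblast from muscle. It was found for 2 of 6 epithelial (EPCAM and CDX2), 1 of 6 leukocyte (CD14) and 1 of 4 endothelial markers (TEK). The start peaks of the fibroblast markers summed to 209 to 241 CPM (counts scaled to library size) in unstimulated, 154 to 203 in stimulated_DMSO and 128 to 192 in stimulated_Belinostat libraries. The 10000 strongest peaks held 35.4 to 39.0% of the counts in unstimulated, 31.8 to 35.2% in stimulated_DMSO and 28.4 to 34.5% in stimulated_Belinostat libraries. The part that these differences and the lower depth after belinostat had in the results was not tested. Unstimulated 6 had 11.29% of peaks at 0, the highest share of the 18. The count columns name 4 sequencing lanes that were unevenly shared: lane 1 held 4 unstimulated, 3 stimulated_Belinostat and no stimulated_DMSO libraries, and lane 2 held 4 stimulated_DMSO, 1 unstimulated and no stimulated_Belinostat libraries. A fit with lane as a term, chosen after seeing the data, is given where it ends a call.

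The promoter of PTGS2 is shown first because its peak had the smallest p-value of the 71. It is the 250 bases before the RefSeq start (GRCh38.p14, minus strand, chr1:186680424-186680673), and capitals mark, from 5′ to 3′, a C/EBP word, a short CRE and a TATA word.
PTGS2 promoter: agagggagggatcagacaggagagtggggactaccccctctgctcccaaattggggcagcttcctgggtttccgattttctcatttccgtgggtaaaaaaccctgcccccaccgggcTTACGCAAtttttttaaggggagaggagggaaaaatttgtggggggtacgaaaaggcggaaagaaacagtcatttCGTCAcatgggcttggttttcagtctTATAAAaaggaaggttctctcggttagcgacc
For comparison, the same stretch of PTGER4, whose start peak moved the other way, is on the plus strand (chr5:40679665-40679914) and has 4 GC boxes in capitals.
PTGER4 promoter: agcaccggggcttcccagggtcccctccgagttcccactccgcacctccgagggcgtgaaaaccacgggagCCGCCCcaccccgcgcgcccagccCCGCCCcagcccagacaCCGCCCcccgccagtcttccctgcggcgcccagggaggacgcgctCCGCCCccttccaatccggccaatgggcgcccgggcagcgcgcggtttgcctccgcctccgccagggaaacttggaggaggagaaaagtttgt

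10 short words were searched on both strands. The first was the AP-1 word TGANTCA, the sequence that Fos and Jun dimers bind. Next came the CRE word TGACGTCA, bound by CREB, and its short form TGACG, which is part of it and is called short CRE here. For NF-kappaB the letters were GGGANTTCC or GGGANTTTC, and for C/EBP factors TTNNGNAA. The TEAD word was GGAATG, and the one for ETS factors was CCGGAA. The GC box, which Sp factors bind, was GGGCGG, while RUNX factors were represented by TGTGGT and the TATA box of core promoters by TATAAA. RefSeq promoters, with 50 bases after the start included, were found for 7 of the 8 genes, all but PTGIS, and every listed start of a gene was used. A GC box was in 5 of the 7 (HPGD, PTGER2, PTGER4, PTGES and PTGS1) and in 45% of all 35116 promoters, and PTGS2 had none. A TATA word was in PTGS1 and PTGS2 and in 11.5% of all promoters, a short CRE in HPGD, PTGER2 and PTGS2 and in 24.6%, and a C/EBP word in PTGS1 and PTGS2 and in 36.8%. In PTGS2 the TATA word began 32 bases, the short CRE 58 bases and the C/EBP word 133 bases before the start, with a further short CRE 25 bases after it. None of the 7 held an AP-1, CRE, kappaB, TEAD or RUNX word, which says only that these letters were not in the window.

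PTGS2 chromatin was more open 2 weeks after the end of treatment in cells that had seen cytokines, and in stimulated_DMSO against unstimulated it was the only 1 of the 8 loci that was called higher. Its peak covered exon 1 (5′ UTR and coding sequence) and the start (chr1:186680002-186681072), where the antisense non-coding gene PACERR also begins, and reads of both cannot be told apart. The peak had 7.73 to 11.2 CPM (median 8.57) in unstimulated, 16.5 to 24.2 (median 21.3) in stimulated_DMSO and 14.4 to 20.1 (median 17.9) in stimulated_Belinostat libraries. All 12 libraries of cytokine-treated cells stood above all 6 unstimulated ones, while the DMSO and belinostat groups overlapped. In raw counts these were 52 to 88, 113 to 168 and 96 to 117.

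Against unstimulated cells the PTGS2 peak was 2.33-fold higher in stimulated_DMSO, a log2 fold change of 1.22 ± 0.13 (SE, n = 6 against 6, edgeR adjusted p = 4.74e-14). Within lane 2 the 4 stimulated_DMSO libraries had 16.5 to 24.2 CPM and the unstimulated one 9.08, within lane 3 the single libraries had 21.7 and 11.2, and with lane as a term the log2 fold change was 1.21 (edgeR adjusted p = 6.16e-09). Of 13367 peaks over the annotated start of a protein-coding gene, 42 had a larger log2 fold change, and of the 3941 start peaks within 0.5 log2 CPM of its abundance, none had. Only 152 of the 13367 start peaks (1.14%) were called opened and 8323 closed, with a median log2 fold change of -0.34. The median of the 3941 was -0.36. In belinostat-treated cells the PTGS2 peak was still above unstimulated, at a log2 fold change of 0.97 ± 0.13 (adjusted p = 4.56e-10). Against stimulated_DMSO it was lower by a log2 fold change of -0.25 ± 0.12, which did not pass (edgeR adjusted p = 0.275).

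**Figure D1:**
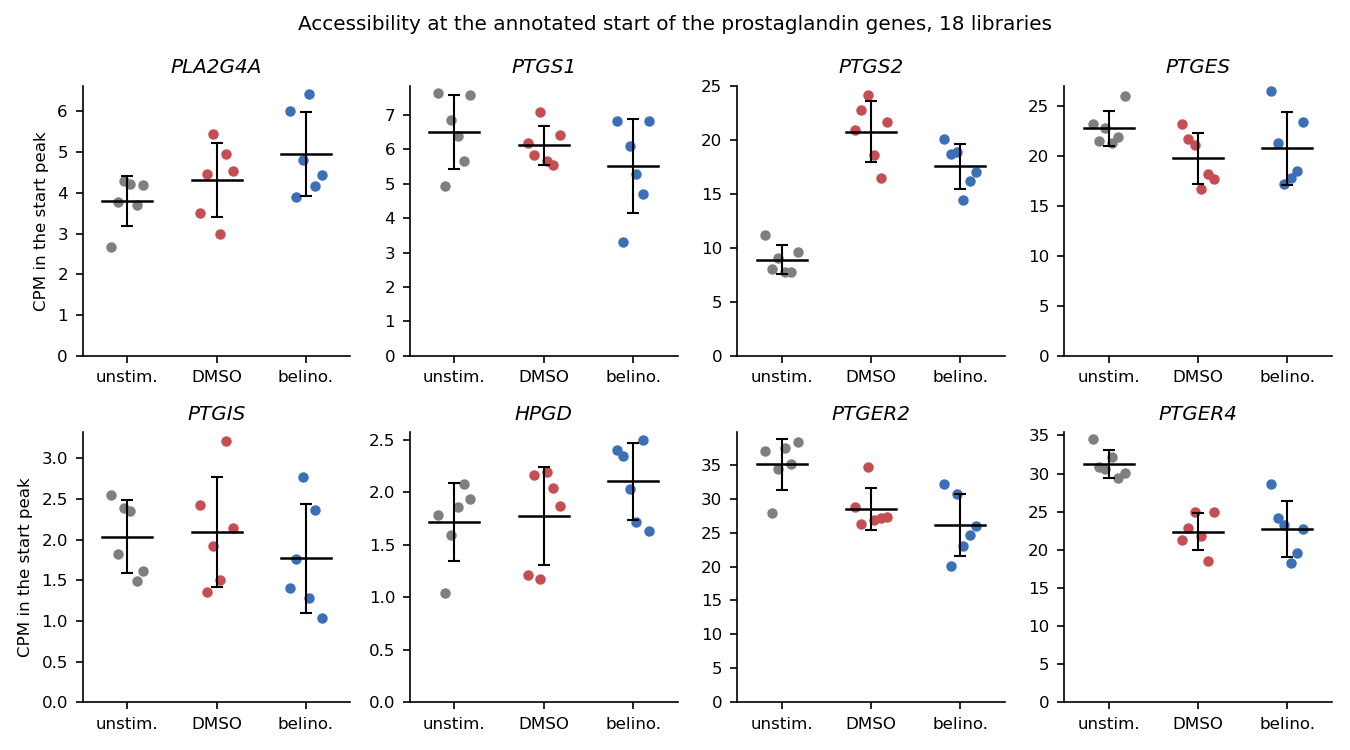
Accessibility, in CPM from 0, of the peak over the annotated start of each of the 8 genes in the 18 libraries (points), with the mean (line) and SD (bar) of the 6 libraries of each group. PTGS2 had 16.5 to 24.2 CPM in stimulated_DMSO against 7.73 to 11.2 in unstimulated libraries, and PTGER4 had 18.5 to 25 against 29.4 to 34.6, without overlap in either gene.

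Peaks beyond the PTGS2 promoter were also opened, mostly in the interval towards PLA2G4A, whose start lies 148.526 kb upstream. Within 160 kb of the PTGS2 start, a window chosen after its values were seen, there were 21 peaks, and all 21 had a log2 fold change above 0 in stimulated_DMSO against unstimulated (57.7% of all peaks did). The edgeR test called 6 opened and none closed, where 9.51% of all peaks were called opened and 9.73% closed. Of the 21 peaks, 14 were weak, at an average log2 CPM under 1, a range in which 12.2% of all peaks were called opened and 0.801% closed. With offsets that remove the trend of change with peak abundance, 19 of the 21 stayed above 0, 4 were called opened and none closed. Such offsets called 6709 of all 334857 peaks opened and 6379 closed. With lane as a term 2 of the 21 were called opened.

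The largest change in this window was 35.9 kb upstream of PTGS2, outside any annotated gene (chr1:186715860-186716686). That peak had 0.762 to 2.25 CPM (median 1.23) in unstimulated and 1.34 to 5.65 CPM (median 3.50) in stimulated_DMSO, a log2 fold change of 1.40 ± 0.24 (edgeR adjusted p = 1.09e-05), although the groups overlapped. In stimulated_Belinostat it had 1.17 to 3.29 CPM (median 1.97), lower than DMSO by a log2 fold change of -0.69 ± 0.23 that did not pass (edgeR adjusted p = 0.0794).
A further 3 upstream peaks opened, 63.6, 74.4 and 83 kb away, by log2 fold changes of 1.00, 0.78 and 0.58 (edgeR adjusted p = 0.00999, 0.00489 and 0.00208). The last was the strongest of these 3, with 5.97 to 8.54 CPM in unstimulated and 9.24 to 10.8 CPM in stimulated_DMSO libraries, without overlap. The sixth opened peak lay 144.5 kb on the other side of the start, past the 3′ end of the gene (log2 fold change 0.68 ± 0.24, edgeR adjusted p = 0.0302). The PLA2G4A start at the far end of the interval did not pass (log2 fold change 0.17 ± 0.18, adjusted p = 0.518). Belinostat against DMSO called none of the 21 peaks in either direction, where 0.607% of all peaks were called opened and 1.75% closed. A log2 fold change below 0 was found in 12 of the 21 and in 49.1% of all peaks. Belinostat against unstimulated called 7 opened and none closed, where 16.8% of all peaks were called opened and 13.7% closed, and 22.1% opened among those under log2 CPM 1.

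**Figure D2:**
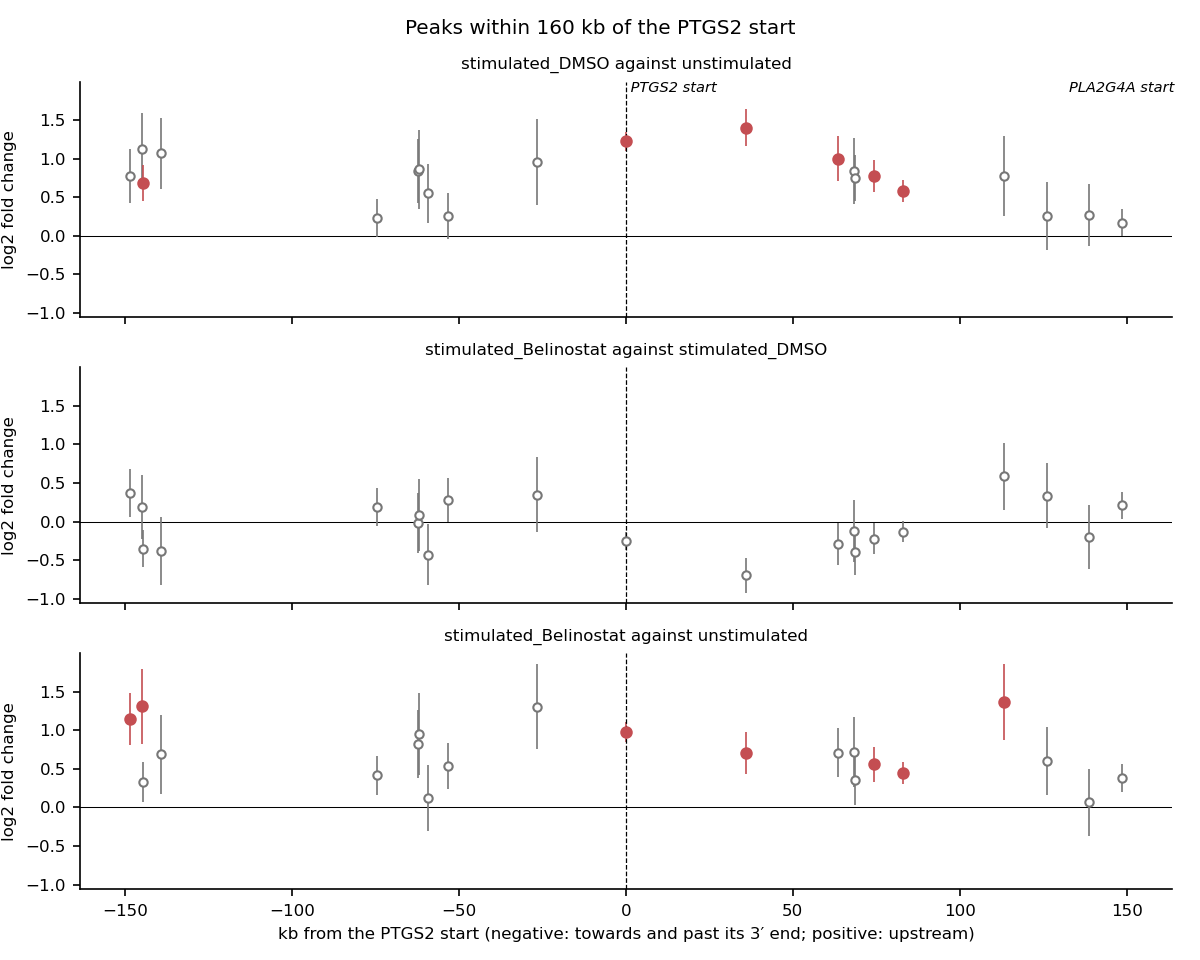
Log2 fold change (points, bars ± SE) of the 21 peaks within 160 kb of the PTGS2 start against their distance in kb, in each of the 3 comparisons, with filled red points for an edgeR adjusted p under 0.05. All 21 points lie above 0 for stimulated_DMSO against unstimulated, 6 of them filled, and none is filled for belinostat against DMSO.

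The loci whose summed accessibility followed PTGS2 most closely over the 18 libraries were NRCAM (Pearson r = 0.987), HSD11B1 (r = 0.963) and STEAP2 (r = 0.950). This is a description over libraries that share their groups and depths. Their log2 fold changes in stimulated_DMSO against unstimulated were 0.61, 0.95 and 0.99. HSD11B1 makes the enzyme that regenerates active cortisol, and NRCAM makes a cell adhesion molecule.

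Over all 71 peaks, stimulated_DMSO against unstimulated gave 5 opened (7.04%) and 10 closed (14.1%), beside 9.51% and 9.73% of all peaks. The 5 opened were the PTGS2 start, 2 weak intronic peaks of PTGIS and 1 weak intronic peak each of HPGD and PLA2G4A. The 10 closed lay in PTGIS (3), PTGES (2), PTGER2 (2), PTGS1 (1), PLA2G4A (1) and PTGER4 (1). Direction went with abundance: of 37 member peaks under log2 CPM 1, 4 opened and none closed, and of 13 over log2 CPM 3, 1 opened and 7 closed (53.8%), where 66.5% of all such peaks closed and 0.323% opened. The 1 that opened was PTGS2. With offsets that remove this trend, 2 of the 71 were opened (the PTGS2 start and the PTGS1 peak from chr9:122366134-122366853) and 1 closed (a PTGER2 intron), with library totals 6 were opened and 4 closed, and with lane as a term 2 and 6. Of all 334857 peaks these fits opened 6709, 54265 and 11928 and closed 6379, 10894 and 17713.

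**Figure D3:**
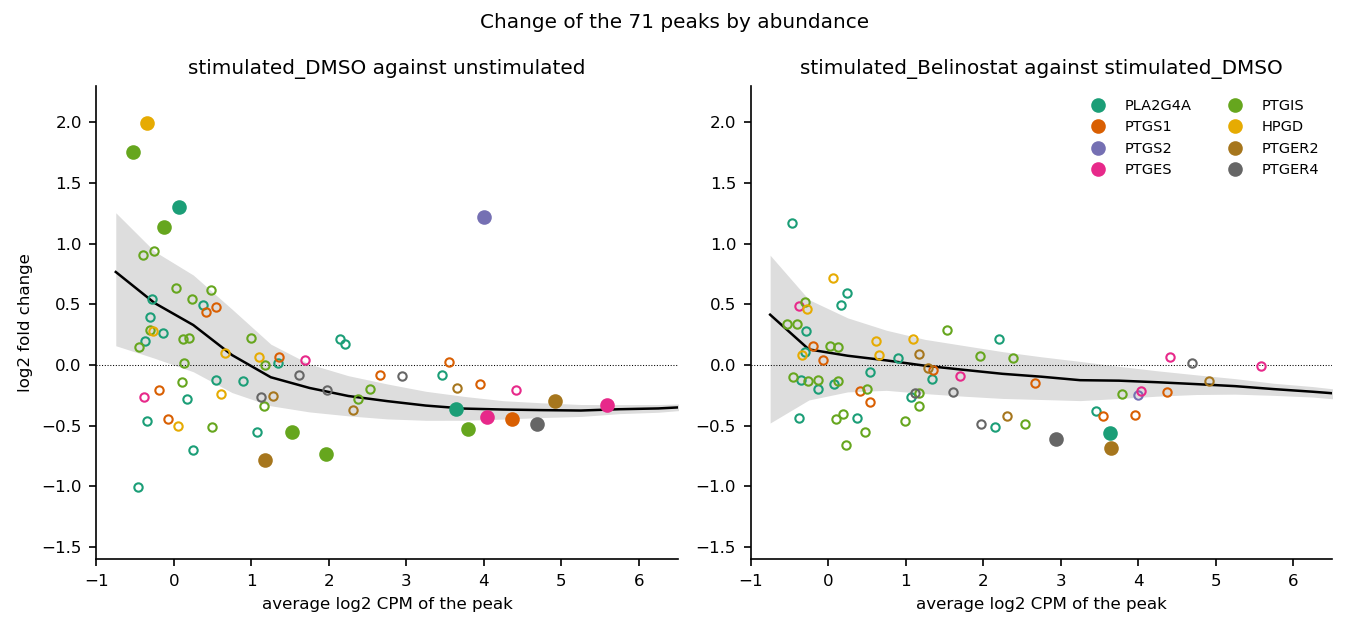
Log2 fold change of the 71 peaks against their average log2 CPM, coloured by gene, for the cytokine comparison (left) and belinostat against DMSO (right), with filled points for an edgeR adjusted p under 0.05. The black line and grey band are the median and quartiles of all 334857 peaks, and PTGS2, at a log2 fold change of 1.22, stands farthest above the band among the strong peaks on the left.

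Summed over whole loci, 1 of the 8 genes was higher (PTGS2, log2 fold change 1.22 ± 0.11, adjusted p = 1.72e-08) and 5 were lower in stimulated_DMSO, while 10.9% of all 19180 protein-coding loci were higher and 62.5% lower. The median locus fell by 0.26 on the log2 scale, a shift that was -0.04 with library totals and -0.02 with trend offsets. Measured from that median, PTGS2 was higher by 1.48, HPGD by 0.35, PLA2G4A by 0.15, PTGS1 by 0.07 and PTGIS by 0.03, and PTGER2, PTGES and PTGER4 differed from it by -0.04, -0.05 and -0.09. With library totals, trend offsets or DESeq2, 1 member locus was higher and none was lower. Of all loci these fits called 3621, 2682 and 3638 higher and 3712, 1601 and 2244 lower. The falls of member locus sums in this comparison therefore hold under the main scaling and not under those. Single peaks differed in this, and some of their falls also passed with library totals and DESeq2.

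PLA2G4A, the phospholipase that supplies arachidonic acid, had no called change of its locus sum in stimulated_DMSO against unstimulated. It had 44 to 62.3 CPM (median 47.8) in unstimulated, 38.3 to 50.9 (median 48.4) in stimulated_DMSO and 34.0 to 44.3 (median 37.4) in stimulated_Belinostat libraries. The first log2 fold change was -0.11 ± 0.09 (adjusted p = 0.285), and with library totals, trend offsets or DESeq2 it was above 0. The start peak, over exon 1 (chr1:186828580-186829490), had 2.67 to 4.30 CPM in unstimulated, 3.00 to 5.45 in stimulated_DMSO and 3.90 to 6.44 in stimulated_Belinostat libraries, and the groups overlapped.

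A pair of intronic PLA2G4A peaks moved in opposite directions. The weak one, 19.8 kb inside the gene (chr1:186848539-186848871), had 0.149 to 0.785 CPM in unstimulated and 0.401 to 1.88 CPM in stimulated_DMSO libraries (log2 fold change 1.31 ± 0.40, edgeR adjusted p = 0.0146). It no longer passed with trend offsets (adjusted p = 0.151), with lane as a term (adjusted p = 0.116) or without stimulated_DMSO 1, its highest library (adjusted p = 0.0900). The strongest peak of the locus, 146 kb inside the gene (chr1:186974698-186975242), had 13.2 to 20.8 CPM in unstimulated and 9.82 to 14.0 in stimulated_DMSO libraries. Its log2 fold change was -0.36 ± 0.13 (adjusted p = 0.0294), and it passed in 14 of 25 alternatives, lane not among them (adjusted p = 0.14). Both hold an AP-1 word, in capitals in bases around their centres (hg38, plus strand, chr1:186848605-186848805 and chr1:186974870-186975070), shown because the same word lies in a peak that opened and in a peak that closed.
PLA2G4A intron, opened: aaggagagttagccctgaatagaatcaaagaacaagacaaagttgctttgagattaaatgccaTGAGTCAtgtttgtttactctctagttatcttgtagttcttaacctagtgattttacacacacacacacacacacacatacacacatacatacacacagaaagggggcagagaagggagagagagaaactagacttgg
PLA2G4A intron, closed: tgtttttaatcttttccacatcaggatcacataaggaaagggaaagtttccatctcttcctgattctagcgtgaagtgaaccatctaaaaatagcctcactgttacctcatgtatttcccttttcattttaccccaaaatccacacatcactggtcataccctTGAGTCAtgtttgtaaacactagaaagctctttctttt

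Around the peak centre, in windows of the same length, the AP-1 word was in 15 of the 71 member peaks (21.1%) and in 14.2% of all peaks. It was in 2 of the 5 opened (PLA2G4A and HPGD) and in 2 of the 10 closed peaks (PTGS1 and PLA2G4A).

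PTGS1, the constitutive cyclooxygenase, had 62.6 to 71.5 CPM over its 9 peaks in unstimulated, 51.3 to 67.4 in stimulated_DMSO and 42.0 to 58.2 in stimulated_Belinostat libraries. The locus fell by 0.19 on the log2 scale in stimulated_DMSO (adjusted p = 0.0371), a call lost in 7 of 18 fits that left out 1 library and reversed in sign with library totals, trend offsets and DESeq2. Its annotated start (chr9:122370851-122371248) did not pass, with 4.93 to 7.62, 5.54 to 7.08 and 3.32 to 6.82 CPM in the 3 groups (log2 fold change -0.09 ± 0.15, adjusted p = 0.724). The strongest PTGS1 peak, in the 3′ UTR in exon 11 (chr9:122394131-122395190), fell from 22.4 to 28 CPM (median 25.6) to 16.4 to 21.2 CPM (median 19.3). The groups did not overlap and the log2 fold change was -0.44 ± 0.11 (adjusted p = 0.00332), but -0.08 with trend offsets (adjusted p = 0.552). PTGS1 and PTGS2, which catalyse the same reaction, had locus log2 fold changes of -0.19 and 1.22 in the same libraries.

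PTGES, the inducible prostaglandin E synthase, had the highest summed accessibility of the 8 per kb of peak, with 30.3 to 37.2 CPM per kb (median 31.4) in unstimulated libraries. By the median level per kb it was followed there by PTGER2 (19.1), PTGER4 (17.6), PTGS1 (14.2), PTGS2 (8.00), PLA2G4A (7.15), PTGIS (6.86) and HPGD (3.26), and the ranges of PTGER2 and PTGER4, and of PTGS2, PLA2G4A and PTGIS, overlapped. In stimulated_DMSO libraries PTGS2 stood next to PTGES, with 15.4 to 22.6 CPM per kb against 24.2 to 28.4, and its range overlapped those of PTGER2 and PTGER4.

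The PTGES start (chr9:129752458-129753442) had 21.3 to 25.9 CPM in unstimulated and 16.6 to 23.1 CPM in stimulated_DMSO libraries (log2 fold change -0.20 ± 0.11, adjusted p = 0.195). The locus fell (log2 fold change -0.31 ± 0.07, adjusted p = 0.000992), but did not pass when only 3 kb upstream was counted (-0.17, adjusted p = 0.0911). Its 2 closed peaks lay beyond that limit. The stronger one (chr9:129761267-129762368) went from 50.0 to 64.7 CPM to 38.9 to 48.1 CPM without overlap, a log2 fold change of -0.33 ± 0.10 (adjusted p = 0.0140), and the other (chr9:129762498-129763138) from 15.3 to 23.8 CPM to 13.8 to 18.3 CPM, a log2 fold change of -0.43 ± 0.12 (adjusted p = 0.00729). With trend offsets these were 0.09 and -0.06 (adjusted p = 0.366 and 0.715), so the direction of the first depended on the scaling.

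PTGIS, prostacyclin synthase, was spread over 22 mostly weak peaks, 15 of them under log2 CPM 1. Its start (chr20:49567920-49568199) was not among these 15, with 1.49 to 2.54, 1.35 to 3.21 and 1.04 to 2.77 CPM in the 3 groups and a log2 fold change of 0.00 ± 0.24 (adjusted p = 0.991). Prominent instead was a peak 57.3 kb inside the gene, the strongest of the 22, over coding exon 9 (chr20:49510416-49511199). It fell from 15.5 to 21.1 CPM (median 17.1) in unstimulated to 9.95 to 13.5 CPM (median 12.6) in stimulated_DMSO without overlap, a log2 fold change of -0.53 ± 0.12 (adjusted p = 0.00127). With trend offsets it was -0.19 (adjusted p = 0.216), and with lane as a term -0.45 (adjusted p = 0.0504). The other 2 closed peaks of PTGIS were in an intron (chr20:49534253-49534657, -0.55 ± 0.21, adjusted p = 0.0437) and upstream (chr20:49575531-49576110, -0.73 ± 0.18, adjusted p = 0.00258), and the groups did not overlap in either. With trend offsets these were -0.44 and -0.54, and neither passed (adjusted p = 0.206 and 0.0583). Its 2 opened peaks were weak and intronic, at log2 fold changes of 1.76 (chr20:49519579-49519745, adjusted p = 0.0334) and 1.14 (chr20:49540332-49540541, just under the threshold), and neither passed with trend offsets (adjusted p = 0.245 and 0.319).

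HPGD, the enzyme that inactivates prostaglandins, had the least accessible locus, with 4.31 to 7.06, 4.17 to 8.39 and 6.22 to 9.03 CPM summed over 6 peaks in the 3 groups. Neither the locus (log2 fold change 0.09 ± 0.16, adjusted p = 0.627) nor its start (chr4:174522237-174522922, 0.06 ± 0.24, adjusted p = 0.877) passed in stimulated_DMSO against unstimulated. An intronic peak 19.2 kb inside the gene (chr4:174503219-174503378) opened from 0 to 0.294 CPM to 0.269 to 1.08 CPM (log2 fold change 2.00 ± 0.54, adjusted p = 0.00593), but at this depth that rests on a few counts per library, and the adjusted p was 0.0809 with trend offsets and 0.109 with lane as a term. It is shown with its AP-1 word in capitals as the largest log2 fold change among the 71, around its centre (hg38, plus strand, chr4:174503198-174503398).
HPGD intron: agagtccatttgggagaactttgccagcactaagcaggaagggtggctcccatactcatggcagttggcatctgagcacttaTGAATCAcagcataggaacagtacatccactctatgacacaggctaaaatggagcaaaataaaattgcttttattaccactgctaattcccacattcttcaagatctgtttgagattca

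The starts of PTGER2 and PTGER4 were less accessible in stimulated_DMSO, as were 8323 of the 13367 start peaks, whose median log2 fold change was -0.34. The other receptors of prostaglandin E2, PTGER1 and PTGER3, are in the pathway list below, and their loci did not pass, except that of PTGER3 with trend offsets, where it was higher (log2 fold change 0.19, adjusted p = 0.0416). The PTGER4 start (chr5:40678980-40680262) went from 29.4 to 34.6 CPM (median 30.7) in unstimulated to 18.5 to 25 CPM (median 22.4) in stimulated_DMSO, and stayed at 18.3 to 28.7 CPM (median 23.0) in stimulated_Belinostat libraries. Unstimulated libraries were above all 12 others, and the log2 fold change was -0.48 ± 0.11 (adjusted p = 0.00101). All 5 peaks of PTGER4 also lie in TTC33, which runs across it on the other strand. The PTGER2 start (chr14:52313805-52315161) had 27.9 to 38.3 CPM in unstimulated and 26.3 to 34.6 CPM in stimulated_DMSO libraries (log2 fold change -0.30 ± 0.11, adjusted p = 0.0386), a call that held in 8 of 18 fits that left out 1 library and not with lane as a term (adjusted p = 0.114). With trend offsets neither start passed, at log2 fold changes of -0.11 for PTGER4 and 0.09 for PTGER2 (adjusted p = 0.352 and 0.461).

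A weaker PTGER2 peak in the intron, 11.5 kb inside the gene (chr14:52325711-52325981), was also lower with trend offsets. It had 2.21 to 3.19 CPM (median 2.70) in unstimulated, 1.16 to 2.29 (median 1.41) in stimulated_DMSO and 0.971 to 2.37 (median 1.66) in stimulated_Belinostat libraries. The log2 fold change was -0.78 ± 0.23 (adjusted p = 0.0105), and -0.75 with trend offsets (adjusted p = 0.0395). It missed the threshold with library totals (adjusted p = 0.0644) and with DESeq2 (adjusted p = 0.0523).

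**Figure D4:**
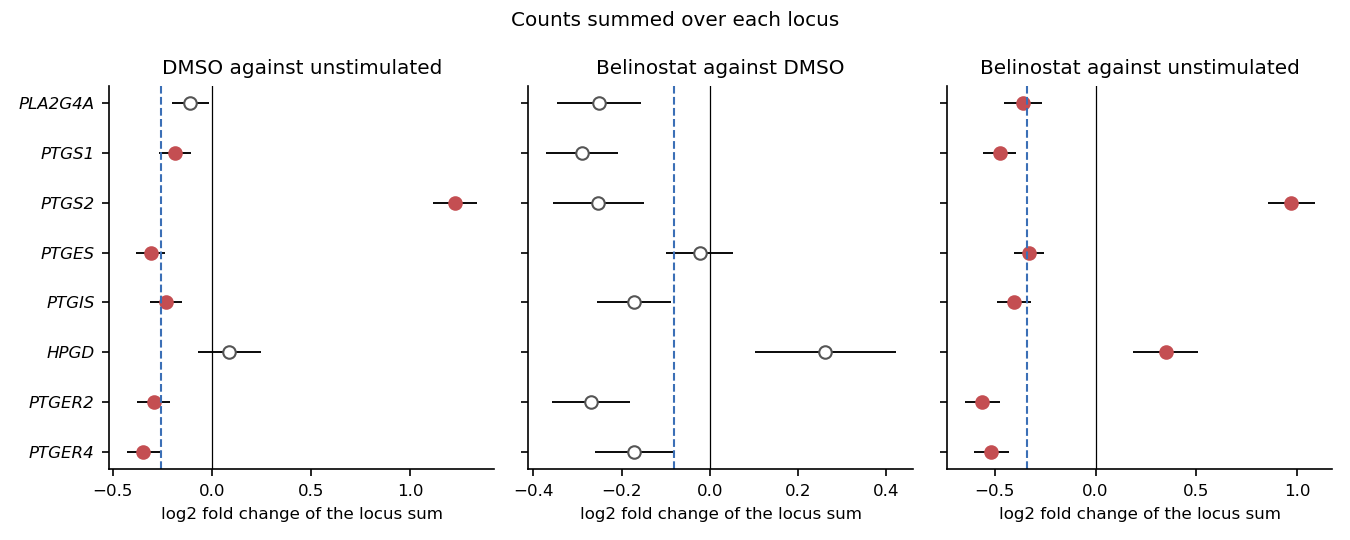
Log2 fold change (points, bars ± SE) of the counts summed over each of the 8 loci in the 3 comparisons, each with its own axis, with filled red points for an edgeR adjusted p under 0.05. The dashed line is the median of all 19180 loci, at -0.26, -0.08 and -0.34 from left to right, and PTGS2 lies at 1.22, -0.25 and 0.97.

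Belinostat after the cytokines closed 3 of the 71 peaks and opened none against stimulated_DMSO, where 1.75% of all peaks closed and 0.607% opened (edgeR). Closing was more frequent among stronger peaks. Of 21 member peaks at log2 CPM 1 to 3, 1 closed (4.76%), beside 3.99% of all such peaks. Of 13 member peaks over log2 CPM 3, 2 closed (15.4%), beside 9.81% of all such peaks. At an unadjusted p under 0.05, 11 of the 71 were lower and 1 higher, beside 25729 and 27502 of all 334857 peaks. DESeq2 also opened none of the 71, while trend offsets opened 1 (PTGES upstream, chr9:129761267-129762368, adjusted p = 0.0244). The 3 closed peaks lay in PLA2G4A, PTGER2 and PTGER4, none of them over a start. With lane as a term only the PTGER2 peak still passed. The 8 start peaks had a median log2 fold change of -0.06.

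The PTGER2 peak was at the end of the gene, in exon 2 with coding sequence and 3′ UTR (chr14:52327281-52328094). It had 13.5 to 17.2 CPM (median 15.1) in unstimulated, 9.36 to 16.1 (median 13.5) in stimulated_DMSO and 6.64 to 10.0 (median 8.01) in stimulated_Belinostat libraries. The belinostat and DMSO groups overlapped at their edges, and the log2 fold change was -0.68 ± 0.14 (adjusted p = 0.000412). It passed in all 25 alternatives, with a log2 fold change of -0.62 with lane as a term (adjusted p = 0.0349), and within lane 4 it had 9.18 to 10.0 CPM in 2 stimulated_Belinostat libraries and 15.9 in 1 stimulated_DMSO library. Stimulated_DMSO against unstimulated gave -0.19 ± 0.12 (adjusted p = 0.275).

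The PTGER4 peak lay 10.1 kb upstream of the start, within TTC33 (chr5:40669437-40670163). It had 6.53 to 9.99 CPM (median 8.96), 6.42 to 10.8 (median 7.79) and 4.10 to 6.82 (median 5.25) in the 3 groups, a log2 fold change of -0.61 ± 0.16 for belinostat against DMSO (adjusted p = 0.0104). It passed in 23 of 25 alternatives and missed without stimulated_DMSO 2 (adjusted p = 0.0888) and with lane as a term (-0.59, adjusted p = 0.162). Within lane 3 the single stimulated_Belinostat library had 6.82 CPM and the stimulated_DMSO library 6.42, and within lane 4 the values were 4.72 to 5.78 and 7.53. The bases around its centre hold 2 C/EBP words and a TEAD word in capitals and no AP-1 word (hg38, plus strand, chr5:40669700-40669900).
PTGER4 upstream: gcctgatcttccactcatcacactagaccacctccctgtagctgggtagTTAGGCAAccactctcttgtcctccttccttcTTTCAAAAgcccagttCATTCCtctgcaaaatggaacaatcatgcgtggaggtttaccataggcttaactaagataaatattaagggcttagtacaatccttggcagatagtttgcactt

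The PLA2G4A peak was the strongest of that locus, shown above as the closed intron. It had 13.2 to 20.8 CPM (median 15.3), 9.82 to 14.0 (median 12.8) and 6.01 to 11.4 (median 8.00) in the 3 groups, with a log2 fold change of -0.56 ± 0.14 for belinostat against DMSO (adjusted p = 0.00867). It too passed in 23 of 25 alternatives, and missed without stimulated_Belinostat 4 (adjusted p = 0.0501) and with lane as a term (-0.56, adjusted p = 0.0895). Within lanes 3 and 4 it was 11.4 CPM against 13.9 and 6.01 to 10.2 against 11.7. Against unstimulated its log2 fold change was -0.92 ± 0.14 (adjusted p = 1.81e-08).

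**Figure D5:**
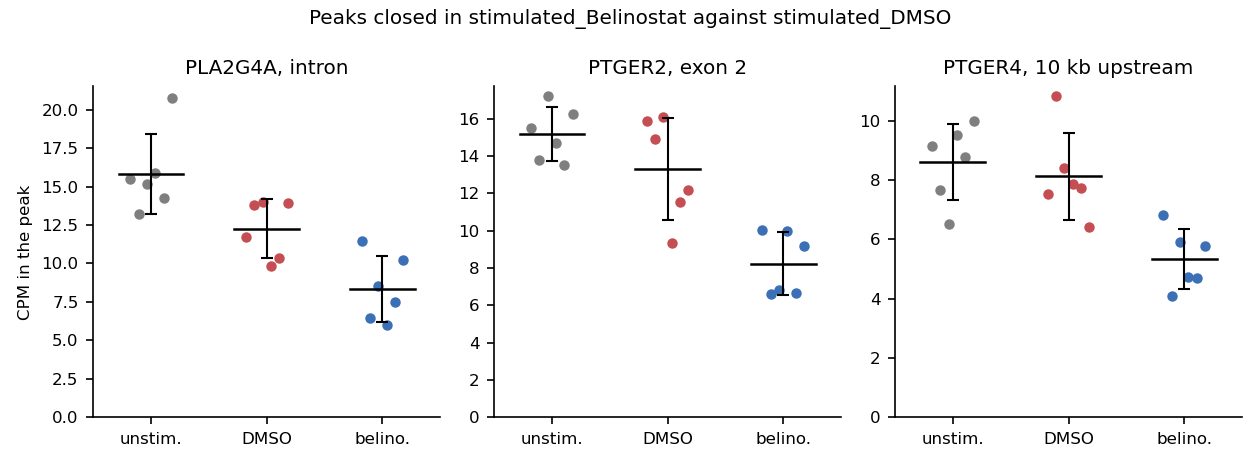
Accessibility, in CPM from 0, of the 3 peaks that belinostat closed, in the 18 libraries (points), with the mean (line) and SD (bar) of each group of 6. Medians were 12.8, 13.5 and 7.79 CPM in stimulated_DMSO and 8.00, 8.01 and 5.25 CPM in stimulated_Belinostat libraries for PLA2G4A, PTGER2 and PTGER4, with some overlap in each.

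No member locus passed as a sum in belinostat against DMSO, where edgeR called 0.125% of all loci higher and 2.04% lower. At an unadjusted p under 0.05 none of the 8 was higher and 4 were lower, beside 512 and 3533 of all 19180 loci. DESeq2 also called none. The 4 were PTGS1 (-0.29 ± 0.08, adjusted p = 0.0557), PTGER2 (-0.27 ± 0.09, adjusted p = 0.0949), PLA2G4A (-0.25 ± 0.10, adjusted p = 0.138) and PTGS2 (-0.25 ± 0.10, adjusted p = 0.164), against -0.08 for the median locus. Without stimulated_Belinostat 1, which had the highest PTGS2 peak of its group, 5 of the 8 loci passed as lower: PTGS1, PTGS2, PLA2G4A, PTGER2 and PTGER4. In that fit 6 of the 30 further eicosanoid loci described below were lower too, against 1 in the main fit. The share of all loci lower in that fit is not given, so the 5 cannot be read as particular to these genes. In the main fit HPGD was the only one of the 8 loci above 0, at 0.26 ± 0.16 (adjusted p = 0.338).

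Belinostat-treated cells against unstimulated cells gave 4 opened (5.63%) and 19 closed peaks (26.8%) among the 71, beside 16.8% and 13.7% of all peaks. Direction again went with abundance. Over log2 CPM 3, 11 of 13 member peaks closed (84.6%), beside 84.8% of all such peaks. At log2 CPM 1 to 3, 8 of 21 closed (38.1%), beside 26.5%. Under log2 CPM 1, 3 of 37 opened (8.11%), beside 22.1%. With trend offsets 4 were opened and 5 closed, beside 12785 and 16485 of all 334857 peaks. This comparison shares its libraries with the other two. Among loci, PTGS2 (0.97 ± 0.12) and HPGD (0.35 ± 0.16, adjusted p = 0.0477) were higher and the other 6 lower, where 13% of all loci were higher and 66.8% lower. The HPGD call was lost in 9 of 18 fits that left out 1 library. With trend offsets only PTGS2 was higher, and PTGER2 and PTGER4 were lower (adjusted p = 0.0217 and 0.0364), beside 3911 higher and 3499 lower of all 19180 loci.

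Of 30 further genes of the eicosanoid pathway, 3 loci (10%) were higher in stimulated_DMSO against unstimulated and 13 (43.3%) lower, beside 10.9% and 62.5% of all loci, with a median log2 fold change of -0.17 beside -0.26 for all loci. With trend offsets 7 were higher and none lower, beside 2682 and 1601 of all 19180 loci. The 3 were PTGDR, PTGFR and ALOX15. PTGDR, a receptor of prostaglandin D2, had 2.09 to 3.98 CPM in unstimulated and 4.84 to 8.12 CPM in stimulated_DMSO libraries (log2 fold change 1.01 ± 0.18, adjusted p = 0.000217). PTGFR, the receptor of prostaglandin F2α, had 17.8 to 26.3 and 28.6 to 34.6 CPM (0.53 ± 0.08, adjusted p = 8.2e-05), and ALOX15, a lipoxygenase named after its values were seen, 7.57 to 10.8 and 10.9 to 13.6 CPM (0.39 ± 0.11, adjusted p = 0.00387).
In all 3 the groups did not overlap, and all 3 passed with trend offsets too. PTGDR starts 46.6 kb from PTGER2 on chromosome 14, and 2 of its 3 peaks opened and none closed, while 2 of the 5 PTGER2 peaks closed and none opened. Among those that were lower, the smallest p-values belonged to CBR1 (-0.41 ± 0.09, adjusted p = 0.000599), TBXAS1 (-0.28 ± 0.07, adjusted p = 0.00100), ALOX5AP (-0.31 ± 0.08, adjusted p = 0.00140) and LTA4H (-0.33 ± 0.08, adjusted p = 0.00143), and none of them passed with trend offsets.

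In belinostat against DMSO the main edgeR fit called none of the 30 higher, also at an unadjusted p under 0.05. Library totals, trend offsets and DESeq2 called 2 higher each, beside 328, 500 and 410 of all 19180 loci. The main fit called 1 lower, PLA2G5, a secreted phospholipase A2. Its locus had 19.8 to 23.3 CPM in stimulated_DMSO and 14.0 to 18.6 CPM in stimulated_Belinostat libraries, without overlap (log2 fold change -0.40 ± 0.09, adjusted p = 0.0133), and with lane as a term none of the 30 passed. Its most changed peak (chr1:20063796-20064408) fell from 3.58 to 6.04 CPM to 1.00 to 2.59 CPM (log2 fold change -1.40 ± 0.21, adjusted p = 5.21e-07). Against unstimulated cells, belinostat-treated cells had 5 of the 30 loci (16.7%) higher and 17 (56.7%) lower, beside 13% and 66.8% of all loci. With trend offsets 9 were higher and 2 lower, beside 3911 and 3499 of all 19180 loci.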

How the data were processed

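Bulk ATAC-seq was made of 18 libraries of the Ccd18-Co line. The authors deposited 1 table of raw read counts per peak, with 334857 peaks on hg38, and per the labels used MACS2 for peak calling and ChIPseeker 1.34.1 for annotation. They trimmed and aligned paired reads with the ENCODE pipeline, built consensus peaks, left out blacklisted regions and counted fragments with csaw, so weak and strong peaks come from 1 set for all groups. Peak starts count from 0 in the table and are printed from 1. Every column was matched to 1 library by the sample number in its name and in the library description.

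Members and lists were chosen with earlier results of these data known. Gene bodies came from GENCODE release 44, and promoters from RefSeq (GRCh38.p14). Counts per peak, and counts summed over each protein-coding body with 10 kb upstream (19180 loci), were fitted with edgeR 4.0.16 (R 4.3.3), with TMM factors from the peaks, 3 group means over all 18 libraries, and quasi-likelihood tests. Calls were made at 0.05 after Benjamini-Hochberg adjustment across every peak or locus. Log2 CPM used a prior count of 2, and SE is the log2 fold change divided by the root of F. A filter at an average log2 CPM of -3 removed 0 peaks. Trend offsets are loess offsets against abundance, which remove any change shared by peaks of like strength. Fits were tested on simulated data.

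Named were all members, each locus's start peak, strongest peak and the peaks with the smallest passing p in the cytokine and belinostat comparisons, up to 6 passing pathway genes per comparison, and the 3 loci most correlated with PTGS2. Other peaks and genes were named after their values were seen. Alternatives were library totals, TMM over 10 kb bins, loess offsets, DESeq2 1.42.0, an average log2 CPM over 0, a replicate block, 3 kb upstream, gene bodies alone, merged peaks, leaving out each library and, added after seeing the data, lane as a term and the window around PTGS2. Depth limits precision most in peaks under log2 CPM 1. Words were searched with Python 3.11.15 and pysam 0.24.0.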

Additional observations from a re-analysis of the deposited data

Results flagged for a closer look

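In groups of 6 libraries, 4 values stood apart from the other 5 by a gap past Dixon's critical share of the group's range, among 78 groups checked, and chance marks about 1 in 20 groups. The PLA2G4A start peak had a log2 CPM of 1.56 in unstimulated 1, while the others lay between 2 and 2.2. The weak PLA2G4A intron peak from chr1:186848539-186848871 had -0.03 in stimulated_Belinostat 5, against 0.23 to 0.37 in the others. The PTGER2 start peak was lowest in unstimulated 2, at 4.82 against 5.12 to 5.27, and highest in stimulated_DMSO 3, at 5.13 against 4.73 to 4.86, which are the libraries of each group nearest to the other group.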

How the results depend on the processing

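The PTGS2 peak passed in all 25 alternatives, at log2 fold changes of 1.17 to 1.58, and its locus in all 27. Falls at strong peaks depended on scaling, and the cause was not tested. In this section cytokines stands for stimulated_DMSO against unstimulated, in which cytokines and vehicle cannot be told apart. Of the 71 peaks, cytokines opened 2 with loess offsets, 3 with DESeq2 and 2 above a log2 CPM of 0 (main 5), and closed 4 with library totals, 1 with loess offsets and 6 with DESeq2 (main 10). Belinostat opened 1 with loess offsets. Belinostat against unstimulated opened 9 with library totals and 2 with the filter, and closed 8 with library totals and 5 with loess offsets. Of all 334857 peaks, library totals opened 101897 and closed 21124 in that comparison, and loess offsets closed 16485. The filter kept 200098 peaks, of which 25293 were opened there and 17406 with cytokines. With cytokines DESeq2 opened 15215 and closed 18587 of all peaks, and with belinostat loess offsets opened 3163. Cytokine-lower member loci numbered 0 with library totals, loess offsets and DESeq2, and against unstimulated belinostat had 1 higher with loess offsets and 3, 2 and 2 lower. In the pathway list, cytokines gave 7, 5, 7 and 7 higher (library totals, 10 kb bins, loess offsets, DESeq2) and 1, 0 and 1 lower (without bins). Belinostat gave 2 higher in each of these 3 and 0 lower with library totals and DESeq2, and against unstimulated 11, 9 and 11 higher and 8, 2 and 3 lower. Of all 19180 loci these 3 fits called 4957, 3911 and 5191 higher and 5650, 3499 and 4198 lower against unstimulated. The PTGS2 window had 10 opened with library totals. With lane as a term, cytokines opened 2 and closed 6 of the 71 peaks, belinostat closed 1 of the 71 and lowered 0 of the list, and the window had 2 opened.

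Cytokine log2 fold changes reversed for PTGS1 (0.028 with library totals, 0.10 loess, 0.0546 DESeq2), PTGIS (0.0509 loess, 0.0123 DESeq2), HPGD (-0.078 loess, and -0.0343 to 0.201 leaving out 1 library, below 0 without stimulated_DMSO 2), PLA2G4A (0.11, 0.18 and 0.14), the PTGES upstream peak (0.0857 loess) and the PTGER2 start peak (0.0869 loess). The belinostat value of PTGES reversed to 0.0631, 0.11 and 0.0721 under these 3, to 0.0564 with 3 kb upstream and with the body only and to 0.0367 with lane as a term, and was -0.074 to 0.0124 leaving out 1 library (above 0 without stimulated_DMSO 3 or stimulated_Belinostat 4).

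Leaving out 1 library gave 3 to 5 cytokine-opened member peaks (3 without unstimulated 1 or 5 or stimulated_DMSO 1, 2, 4 or 5) and 6 to 10 closed (6 without unstimulated 6), 0 to 0 belinostat-opened and 2 to 5 closed (5 without stimulated_DMSO 5), and against unstimulated 3 to 5 and 16 to 20. Member loci were 1 to 1 higher and 3 to 5 lower with cytokines (3 without unstimulated 6), 0 to 0 higher and 0 to 5 lower with belinostat (5 without stimulated_Belinostat 1, and 1 without unstimulated 6, stimulated_DMSO 4 or 5), and against unstimulated 1 to 2 (HPGD lost without unstimulated 2, 3 or 5, stimulated_DMSO 3, 4 or 6, or stimulated_Belinostat 1, 2 or 3) and 6 to 6. The list gave 3 to 4 and 10 to 16, 0 to 0 and 0 to 6 (6 without stimulated_Belinostat 1, 2 without unstimulated 6, stimulated_DMSO 4 or 5 or stimulated_Belinostat 5, and 0 without stimulated_DMSO 2 or 6 or stimulated_Belinostat 3), and 4 to 5 and 15 to 17, and the window 5 to 8.

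Replicate numbers are shared by the titles but did not pair libraries: of 18 same-number pairs, 1 had a correlation of deviations over 0.1 (-0.196 to 0.104), and 4 matched best with their own number. With a replicate block, belinostat lowered 2 member loci (PTGS1, adjusted p = 0.0226, and PTGER2, 0.0399, edgeR) and 2 of the list, and no other count moved by over 1.5 times. Low counts limit what the 37 weakest member peaks can show.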
